A study of Mus musculus with 12 samples.

Results

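The comparison described here is that of livers of mice carrying an Lpcat3 deletion (group LKO-NC) with livers of floxed mice (group FLOX-NC), both on the control diet. It was defined by the group labels alone and covers 6 of the 12 libraries of the series, 3 in each group. All mice were male, of strain C57BL/6 and labelled 8 to 10 weeks old. FLOX-NC mice had the genotype LPCAT3flox/flox and LKO-NC mice the genotype LPCAT3flox/flox-cre. Every animal of the study, controls included, thus carried the floxed allele. The remaining 6 libraries came from the same genotypes (FLOX-HFHS and LKO-HFHS) fed an HFHS diet for 16 weeks as a model of fatty liver disease. The promoter driving Cre, the deleted exons and whether each library came from a separate mouse are not given in the sources used here, so that p-values measure only the spread between these libraries. Of 55401 genes counted in liver polyadenylated RNA, 15982 had enough counts to be tested.

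Lpcat3 encodes a lysophospholipid acyltransferase of the endoplasmic reticulum. It places polyunsaturated fatty acids, arachidonic acid among them, into phosphatidylcholine and phosphatidylethanolamine, and it is a target of the liver X receptors. In the liver it is known for its part in very-low-density lipoprotein secretion and in setting the phospholipid composition of the endoplasmic reticulum membrane, to which the sterol-regulated transcription factor SREBP-1c and the unfolded protein response are sensitive.

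Totals over the 12 libraries ran from 34951150 to 59205759 estimated counts. Levels below are CPM, counts in proportion to the library total, after scaling by the trimmed mean of M-values (TMM). Among the control-diet libraries FLOX-NC 1 stood apart. Its scaling factor was 0.752, and those of the other 5 ran from 0.946 to 1.06. The most counted ribosomal RNA gene took 32.6% of its counts and 5.82% to 9.45% of those of the other 5 libraries. The share of this gene stands for that of ribosomal RNA below. Mitochondrially encoded genes summed to 371899 CPM in it and to between 136815 and 296468 CPM in the others. As a share of unscaled counts, mitochondrial genes did not set it apart, at 28.0% against 28.1% in LKO-NC 1 and 25.9% in FLOX-NC 2. Hepatocyte markers were abundant in all 6 libraries, with summed levels of 58629 to 127759 CPM.

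Lpcat3 (ENSMUSG00000004270, mm10 chr6:124663027-124704418, plus strand) was measured at 49.7, 49.9 and 61.9 CPM in FLOX-NC 1, 2 and 3. In LKO-NC 1, 2 and 3 its level was 25.4, 65.0 and 19.4 CPM. The library labelled LKO-NC 2 was therefore above every floxed control library, while the other 2 knockout libraries were below them all. Group means were 53.8 ± 6.98 CPM in FLOX-NC and 36.6 ± 24.8 CPM in LKO-NC (SD, n = 3 each). The fitted difference was -0.56 ± 0.35 on the log2 scale (SE), unadjusted p = 0.134 and adjusted p = 0.718. An exact two-sided permutation test of the mean CPM gave p = 0.4, against a smallest possible 0.1 for 3 libraries against 3. Leaving the library labelled LKO-NC 2 out gave -1.26, adjusted p = 0.147, and this value describes libraries that were kept because their Lpcat3 was low. On the HFHS diet, where floxed libraries had 72.6, 80.6 and 75.7 CPM and knockout libraries 24.96, 25.9 and 29.4 CPM, all 3 knockout libraries were below all 3 floxed ones.

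**Figure D1:**
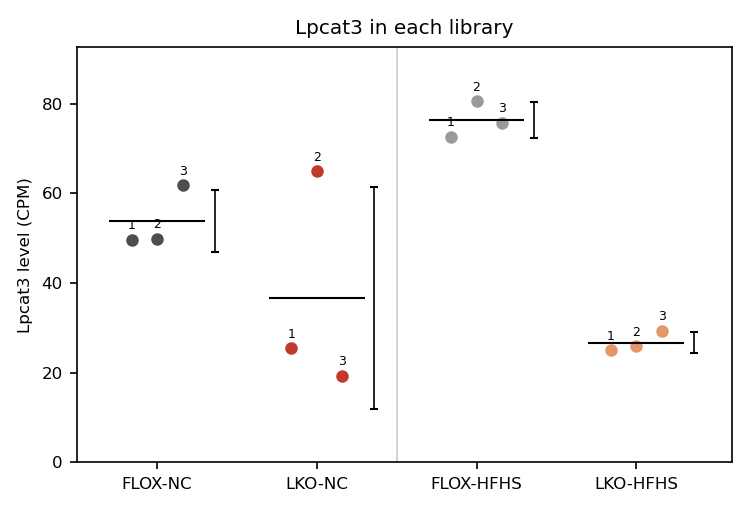
Lpcat3 level (CPM, linear axis from 0) in each of the 12 libraries by group. Points are libraries with their replicate number, horizontal lines are group means and side bars ± 1 SD. The library labelled LKO-NC 2, at 65.0 CPM, lies above the 3 FLOX-NC libraries, and LKO-NC 1 and 3 lie at 25.4 and 19.4 CPM.

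At transcript level most Lpcat3 counts went to the protein-coding transcript ENSMUST00000004381. Its counts were 1353, 1808 and 96 in FLOX-NC and 595, 2383 and 795 in LKO-NC. In FLOX-NC 3 a retained-intron transcript, ENSMUST00000135516, held 2646 counts in place of the protein-coding one. The way estimated counts were divided between transcripts therefore differed between libraries of the same group. Deposited gene FPKM values ran 15.8, 26.7 and 33.4 in FLOX-NC and 16.1, 25.6 and 11.8 in LKO-NC, and on this scale the groups overlapped also without the library labelled LKO-NC 2. Because of that library, many results below are given with it and without it, and a value given with no such remark includes it. Directions are those of the libraries labelled LKO-NC.

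Across the transcriptome, edgeR's quasi-likelihood test called 0 of 15982 genes at an adjusted p under 0.05 (0%). At an unadjusted p under 0.05 it found 1128 genes (7.06%), of which 388 were higher (2.43%) and 740 lower (4.63%) in LKO-NC. DESeq2 called 67 genes (0.419%), 27 higher (0.169%) and 40 lower (0.25%). For 8 of these the groups overlapped, and 4 had a fitted log2 change beyond 20. Limma's voom with sample quality weights called 1 gene (0.00626%), Ugt1a6b. In 636 genes (3.98%) all 3 LKO-NC libraries were above all 3 FLOX-NC libraries, and in 732 (4.58%) they were all below. The median log2 change over all tested genes was -0.05, and 46% had a positive fitted change. Single libraries moved the counts at an unadjusted p under 0.05, which were 461 higher and 408 lower without FLOX-NC 1 and 240 higher and 655 lower without LKO-NC 3. Without FLOX-NC 3 they were 1770 higher (10.6% of the genes then tested) and 1649 lower (9.9%), and these 2 shares are the background for the group counts without FLOX-NC 3 given below.

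Without the library labelled LKO-NC 2, 16878 genes were tested and edgeR again called 0 (0%), with 862 at an unadjusted p under 0.05 (5.11%). Of these, 387 (2.29%) were higher and 475 (2.81%) lower. DESeq2 then called 88 genes (0.521%), 50 higher (0.296%) and 38 lower (0.225%), and 40 of them were among its 67 calls with the library included. Voom with quality weights again called 1 (0.00592%). The left-out library could be set beside the genes chosen without it. Of the 387 higher genes, it lay above the floxed range in 206 (53.2%), within it in 154 (39.8%) and below it in 27 (6.98%). Of the 475 lower genes, it lay below the floxed range in 287 (60.4%) and above it in 12 (2.53%). Over all 16878 genes it lay above in 18.2% and below in 23.7%. For most of these genes the library labelled LKO-NC 2 was thus on the same side as the other knockout libraries, although its Lpcat3 was not. These counts use the same floxed libraries that chose the genes. Any library outside the choice would tend to fall on the same side for that reason, so the shares over all genes are no fair background.

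As no gene passed the adjusted threshold, 5 genes of smallest unadjusted p were named in each direction. They had no overlap between groups, a group mean of at least 1 CPM and no clone, predicted or accession-like name. Their values are descriptions and not calls. Ntrk2 had a smaller unadjusted p in edgeR (1.25e-05) than any of them, but was below 1 CPM and is described later. The 5 higher genes were Hspa1b, Hspb1, Gpat3, Dnajb1 and Zfp36l2, of which 3 encode heat shock proteins. The 5 lower genes were Ebf1, Ugt1a6b, Hivep2, Adra2b and Asap3. Zfp36l2, whose protein promotes the decay of AU-rich messenger RNAs, was at 9.95, 9.42 and 9.22 CPM against 16.3, 14.5 and 23.2 CPM, and the others are described with their groups. All 10 were among the DESeq2 calls, with adjusted p from 8.69e-07 to 0.0117. By the same rule without the library labelled LKO-NC 2, the higher genes were Hspb1, Myc, Dnajb1, Hspa1b and Atf3. The lower genes were Rgs12, Lpcat3, Usp18, Ebf1 and Ugt1a6b. That library was left out for its Lpcat3 level, so the place of Lpcat3 in this list follows from the choice. Rgs12, a regulator of G protein signalling, was at 2.85, 1.65 and 1.5 CPM in FLOX-NC against 0.237, 2.18 and 0.162 CPM in LKO-NC. Like Lpcat3, it was at floxed level in the library labelled LKO-NC 2 and low in the other knockout libraries.

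**Figure D2:**
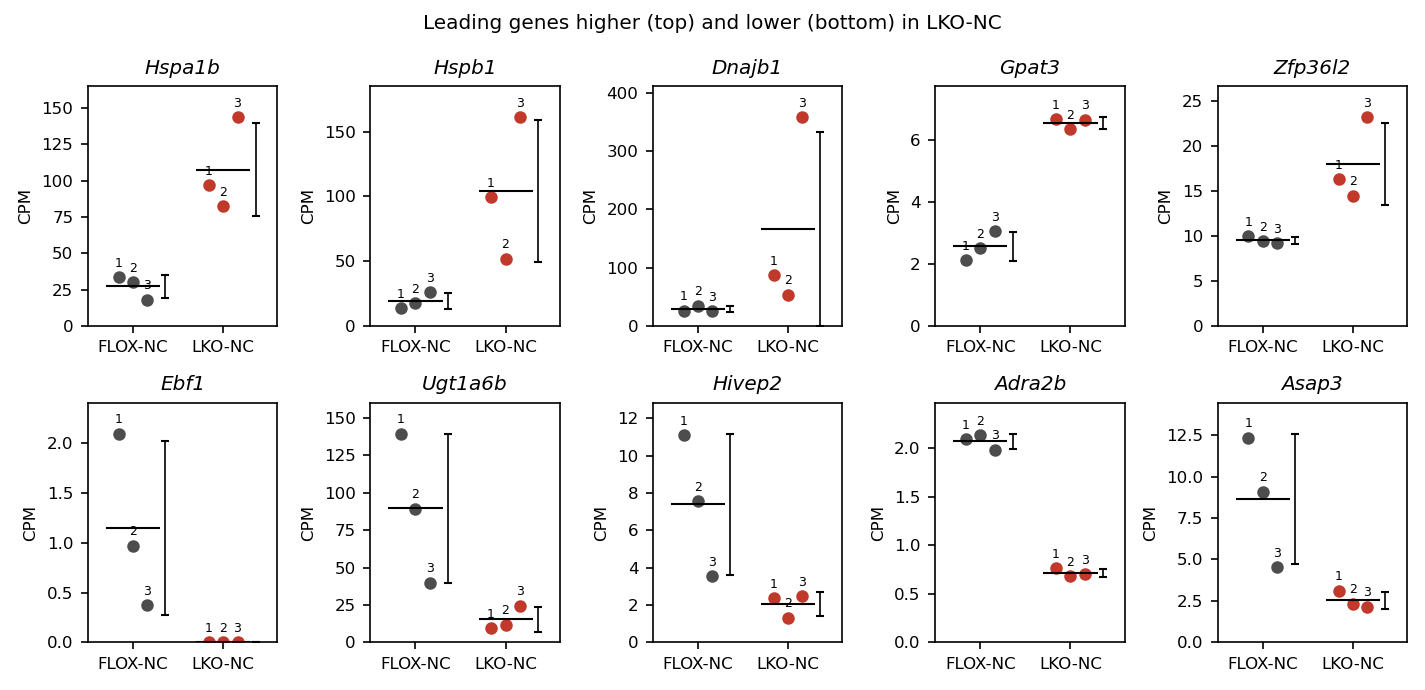
Levels (CPM, linear axes from 0) of the 10 named genes in the 6 control-diet libraries. Points are libraries with their replicate number, horizontal lines are group means and side bars ± 1 SD, drawn no lower than 0. The groups overlap in none of the 10, and Gpat3 and Adra2b have the narrowest spread within LKO-NC relative to their means.

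Heat shock chaperones were the gene group with the highest share of members at an unadjusted p under 0.05. Of 20 members, all tested, 18 were higher in LKO-NC, 13 of them at an unadjusted p under 0.05 (65%, against 2.43% of all tested genes), and none was lower at that threshold. The median log2 change of the group was 0.66, against -0.05 over all genes. edgeR called 0 of the 20 and DESeq2 called 4, all higher (background 0.169%). In 11 of the 20 the 3 LKO-NC libraries were all above the 3 FLOX-NC libraries, as in 3.98% of all tested genes. Without the library labelled LKO-NC 2 the counts were 15 members at an unadjusted p under 0.05 (background 2.29%), a median of 0.79 and 7 DESeq2 calls. Leaving out any other library of the 12 left between 10 and 14 members at that threshold, all higher. In the library labelled LKO-NC 2 itself, 12 of the 20 lay above the floxed range, 7 within it and 1 below.

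Heat shock chaperones bind unfolded proteins in the cytosol and are switched on by heat shock factor 1, which binds inverted repeats of the bases GAA in their promoters. Stretches upstream of the RefSeq start sites (build GRCm38.p6) are shown for Hspa1b and Hspb1, which are among the genes named by p-value, and for Hspe1, which shares its promoter with Hspd1. Dnajb1, whose fitted change was larger than those of all 3, held neither motif in its 2 windows. Capitals mark matches to GAANNTTC or TTCNNGAA.

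Hspa1b (chr17:34959320-34959357, minus strand): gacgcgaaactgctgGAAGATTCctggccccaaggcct

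Hspb1 (chr5:135887787-135887844, plus strand): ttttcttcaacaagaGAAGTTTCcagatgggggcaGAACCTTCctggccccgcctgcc

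Hspe1 (chr1:55088044-55088091, plus strand): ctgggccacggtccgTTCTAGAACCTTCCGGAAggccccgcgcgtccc

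The stretch found for Hspa1a (chr17:34972238-34972275, minus strand) was identical to that of Hspa1b, and the Hspd1 stretch is the other strand of the Hspe1 one. Both motifs read the same on the opposite strand, so each match covers both strands, and the matches overlap in Hspe1. Of the 20 chaperones, 15 had a promoter entry, and 6 of these held GAANNTTC within 250 bases upstream of any of their start sites (40%, against 7.73% of 27025 genes counted the same way). The 6 are not independent, as Hspa1a and Hspa1b have the same stretch and Hspd1 and Hspe1 share one. TTCNNGAA was found in 4 of the 15 (26.7%, against 8.11% of genes), Hspd1 and Hspe1 among them. Over single windows, 6.69% and 7.17% of 32851 held the motifs. A match is a description of the letters and not a bound site.

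Hspa1b, an inducible cytosolic HSP70, was at 33.4, 30.0 and 18.1 CPM in FLOX-NC and at 96.7, 82.3 and 143.6 CPM in LKO-NC. Every LKO-NC library, the one labelled LKO-NC 2 included, was well above every floxed library. The log2 change was 1.99 ± 0.30 (SE), adjusted p = 0.143, and 2.15 without the library labelled LKO-NC 2, adjusted p = 0.0837. Its near-identical neighbour Hspa1a was lower in level, at 3.62, 5.53 and 1.80 CPM against 8.73, 10.3 and 21.4 CPM. Since reads may be divided arbitrarily between them, their sum is safer, and it was 37.0, 35.5 and 19.9 CPM in FLOX-NC against 105.4, 92.6 and 165.0 CPM in LKO-NC.

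Hspb1, the small heat shock protein HSP27 in human nomenclature, was measured at 13.5, 17.7 and 26.0 CPM in FLOX-NC and at 99.4, 51.8 and 161.0 CPM in LKO-NC. The groups did not overlap, and the library labelled LKO-NC 2 was the lowest of the knockout group. The log2 change was 2.45 ± 0.39 (SE), adjusted p = 0.144, and 2.77 without that library, adjusted p = 0.0643. Dnajb1, an HSP40 co-chaperone that stimulates HSP70, was at 25.9, 34.6 and 25.2 CPM against 87.4, 53.7 and 357.7 CPM. LKO-NC 3 alone made up most of the knockout mean, yet the other 2 libraries were also above all floxed ones. The log2 change was 2.54 ± 0.53 (SE), adjusted p = 0.567.

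The abundant constitutive chaperone Hspa8, named here after its values were seen, was at 981.5, 1187.5 and 1322.2 CPM against 2000.5, 1483.6 and 2145.3 CPM, a log2 change of 0.69 (unadjusted p = 0.00968). The mitochondrial chaperonin pair sharing the promoter shown above differed less. Hspd1 had a log2 change of 0.43 and Hspe1 of 0.62, both at an unadjusted p over 0.05, with overlapping groups. Transcript of heat shock factor 1 itself, Hsf1, overlapped between groups at 12.8, 10.5 and 4.63 CPM against 12.2, 3.49 and 6.33 CPM.

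**Figure D3:**
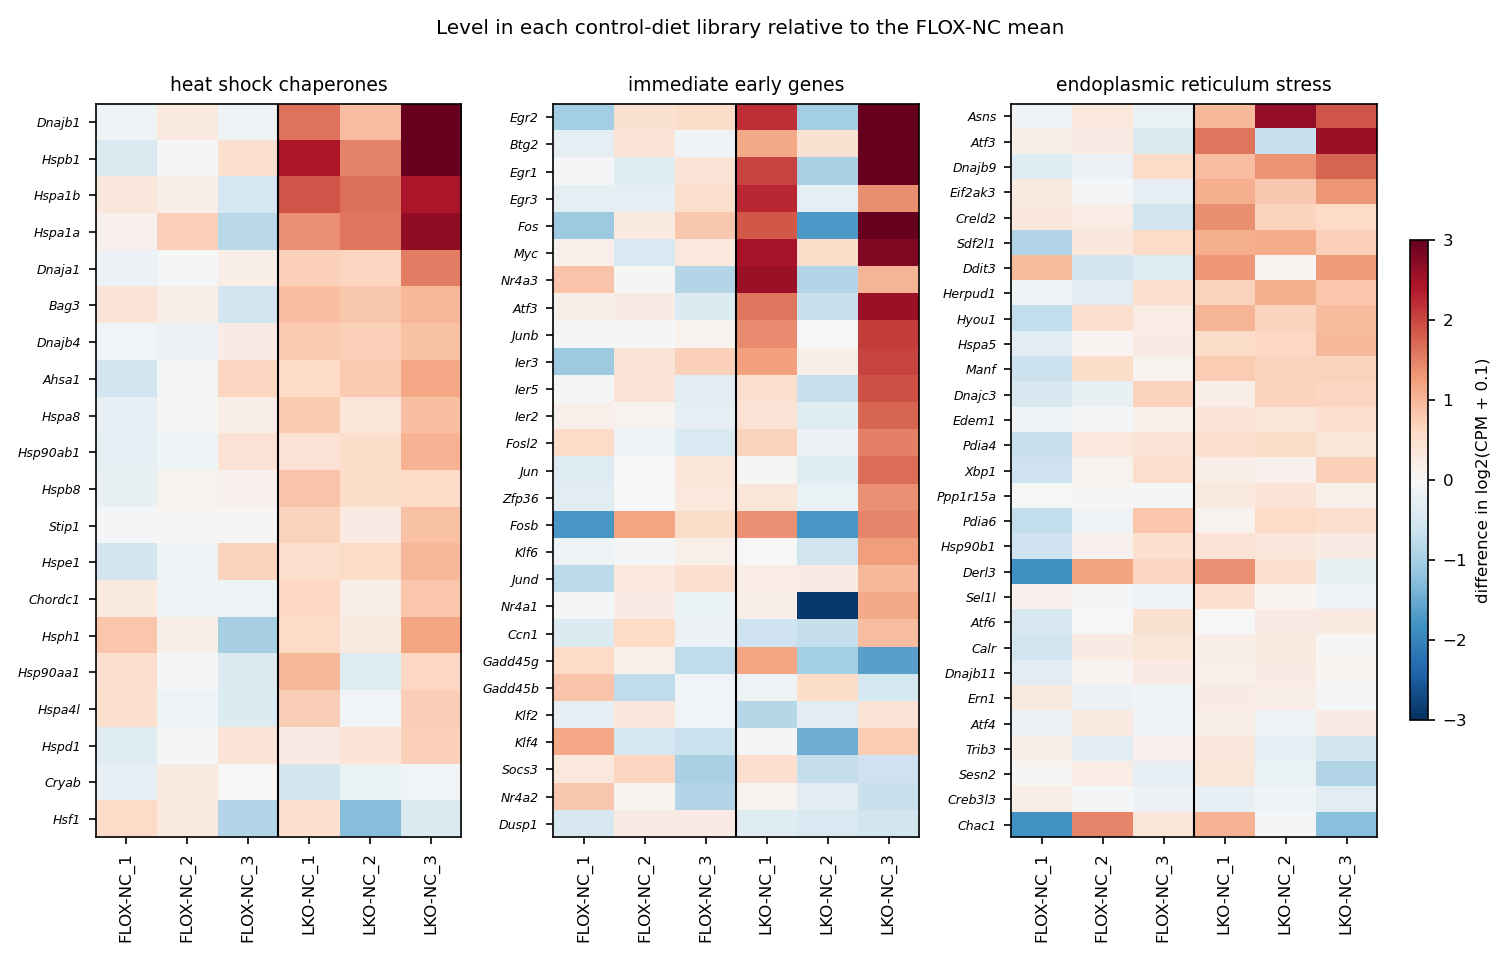
Level of each tested heat shock chaperone (20), immediate early gene (27) and endoplasmic reticulum stress gene (29) in the 6 control-diet libraries, as log2(CPM + 0.1) minus the FLOX-NC mean, capped in colour at 3 in either direction. In 11 of the 20 heat shock genes all 3 LKO-NC libraries are above the floxed ones, and the rest are mixed. Egr1 is red in LKO-NC 1 and 3 and blue in LKO-NC 2.

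Immediate early genes, transcription factors and feedback regulators induced within minutes of a stimulus, followed another pattern over the libraries. Of 27 tested, 20 were higher in LKO-NC and 6 were so at an unadjusted p under 0.05 (22.2%, background 2.43%), with none lower. Their median log2 change was 0.71. In only 2 of the 27, Myc and Btg2, did all LKO-NC libraries lie above all floxed ones, but the number was 15 without the library labelled LKO-NC 2 (background 6.93%), when 14 were at an unadjusted p under 0.05 and the median was 1.12. In that library 2 of the 27 were above the floxed range, 14 within it and 11 below it. LKO-NC 3 carried much of the difference, since without it the median was 0.13 and 2 members remained at that threshold.

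Egr1, a zinc finger transcription factor, was at 9.06, 7.26 and 12.4 CPM in FLOX-NC and at 38.2, 4.67 and 252.1 CPM in LKO-NC. The library labelled LKO-NC 2 was below every floxed library and LKO-NC 3 far above all. Junb, a subunit of the AP-1 factor, was at 15.6, 15.9 and 17.5 CPM against 43.8, 16.3 and 69.6 CPM, again with LKO-NC 2 within the floxed range. Myc, a growth-promoting transcription factor, was at 1.10, 0.682 and 1.23 CPM against 5.88, 1.47 and 7.25 CPM. Its groups did not overlap, the log2 change being 2.28 ± 0.51 (SE), adjusted p = 0.567, and 2.71 without the library labelled LKO-NC 2, adjusted p = 0.0806. Btg2, an antiproliferative regulator, was at 2.29, 3.81 and 2.57 CPM against 6.36, 3.89 and 88.7 CPM, and its mean rests on LKO-NC 3. How the tissue of each library was collected is not given in the sources used here, and its part in these values was not tested.

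Endoplasmic reticulum stress genes, the targets and sensors of the unfolded protein response, were next in share. Of 29 tested, 25 were higher in LKO-NC and 11 were so at an unadjusted p under 0.05 (37.9%, background 2.43%), with none lower at that threshold. The median log2 change was 0.29. edgeR called 0 of them and DESeq2 called 1, and leaving out each of the 12 libraries in turn left 7 to 13 at an unadjusted p under 0.05, all higher, the fewest without LKO-NC 1 or LKO-NC 3 and the most without FLOX-NC 3. Eif2ak3, which encodes the sensor kinase PERK, was at 5.57, 4.49 and 3.86 CPM in FLOX-NC and at 9.87, 8.11 and 11.7 CPM in LKO-NC. The groups were well apart, with a log2 change of 1.10 ± 0.25 (SE), adjusted p = 0.567, DESeq2 adjusted p = 0.0192.

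Dnajb9, a co-chaperone of the reticulum, was at 22.1, 25.6 and 42.9 CPM against 54.8, 74.5 and 97.3 CPM (log2 change 1.32, adjusted p = 0.677). Herpud1, a part of the degradation machinery of the reticulum, was at 161.4, 138.7 and 244.1 CPM against 283.5, 366.8 and 312.6 CPM (log2 change 0.82, adjusted p = 0.677). For both genes all LKO-NC libraries were above all floxed ones, and the library labelled LKO-NC 2 was not the lowest. Atf3, a stress-induced factor also counted among the immediate early genes, was different: it was at 3.25, 3.43 and 2.14 CPM against 8.97, 1.79 and 17.9 CPM, with that library below the floxed range. Hspa5, the main chaperone of the reticulum and named here after its values were seen, was at 306.8, 406.3 and 456.6 CPM against 566.1, 587.2 and 754.7 CPM.

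Targets of NRF2, the factor that induces antioxidant and glutathione enzymes, were likewise mostly higher. Of 28 tested, 26 were higher in LKO-NC and 8 were so at an unadjusted p under 0.05 (28.6%, background 2.43%), with none lower at that threshold, and the median log2 change was 0.51. Neither edgeR nor DESeq2 called any of them, and the 8 became 5 without the library labelled LKO-NC 2, 3 without LKO-NC 3, 4 without FLOX-NC 1 and 13 without FLOX-NC 3. Gclc, the catalytic subunit of the rate-limiting enzyme of glutathione synthesis, was at 169.9, 178.2 and 198.2 CPM in FLOX-NC against 242.1, 259.6 and 292.3 CPM in LKO-NC. The groups did not overlap and the log2 change was 0.54 ± 0.19 (SE), adjusted p = 0.677. Hmox1, which degrades heme, was at 3.38, 2.55 and 2.79 CPM against 3.75, 7.33 and 8.26 CPM. Gstm1, a glutathione transferase, was at 343.2, 438.8 and 382.4 CPM against 496.4, 666.8 and 552.2 CPM. Gsta1, of the same enzyme class, overlapped between groups at 3.25, 4.45 and 2.20 CPM against 4.17, 10.6 and 8.13 CPM.

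**Figure D4:**
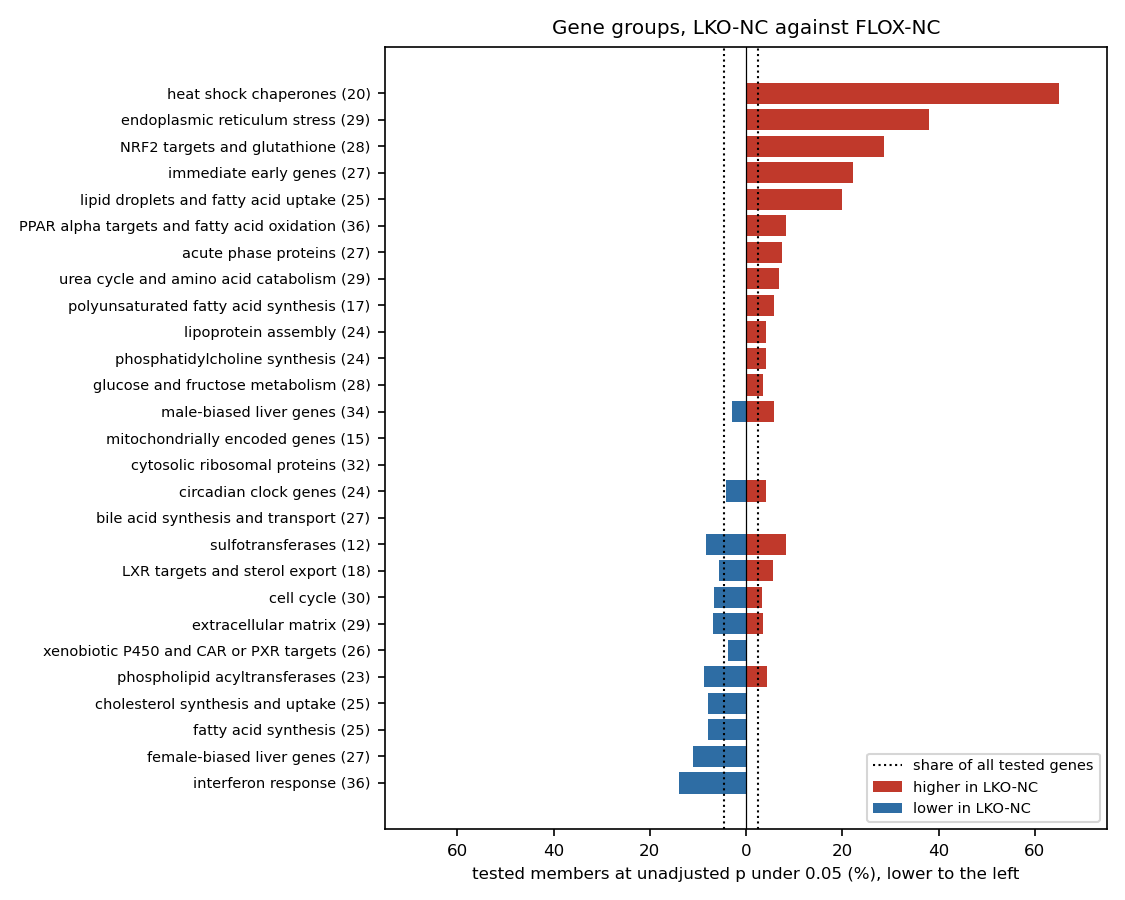
Share of tested members at an unadjusted p under 0.05 in each of 27 gene groups, higher in LKO-NC to the right and lower to the left, with the number of tested members in brackets. Dotted lines mark the shares over all tested genes, 2.43% higher and 4.63% lower. The heat shock group reaches 65% to the right and the interferon group 13.9% to the left.

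Among the 23 tested phospholipid acyltransferases, grouped here by function and not by protein family, 12 were higher and 11 lower, with a median log2 change of 0.03. At an unadjusted p under 0.05 there were 1 higher and 2 lower members (backgrounds 2.43% and 4.63%), and without FLOX-NC 3 there were 5 higher. The higher one was Gpat3, an enzyme of the first acylation step of glycerolipid synthesis, at 2.12, 2.51 and 3.05 CPM in FLOX-NC and 6.65, 6.33 and 6.63 CPM in LKO-NC. The 3 knockout libraries lay close together, well above the highest floxed value, with a log2 change of 1.35 ± 0.25 (SE), adjusted p = 0.345. Taz, here the gene of the mitochondrial cardiolipin acyltransferase tafazzin, was at 23.7, 22.1 and 20.5 CPM against 16.2, 12.02 and 13.9 CPM, a log2 change of -0.65 ± 0.17 (SE), adjusted p = 0.664. Gpat2 was at 3.78, 2.33 and 1.04 CPM against 1.16, 0.473 and 1.19 CPM and overlapped.

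Genes of phosphatidylcholine synthesis, 24 tested, had 18 higher members (46% of all genes were) and 1 higher at an unadjusted p under 0.05 (4.17%, background 2.43%), with a median log2 change of 0.21. Polyunsaturated fatty acid synthesis, 17 tested, had a median of 0.30 and also 1 higher member at that threshold (5.88%). Without FLOX-NC 3 the numbers were 5 and 4. The member of the second group was Elovl5, an elongase of polyunsaturated fatty acids, at 201.0, 239.6 and 344.7 CPM against 613.8, 503.1 and 611.6 CPM (log2 change 1.14, adjusted p = 0.677). All knockout libraries, including the one labelled LKO-NC 2, exceeded all floxed ones for Elovl5.

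Lipogenic and sterol genes were split in direction. Of 25 fatty acid synthesis genes, 10 were higher and 13 lower, and 2 were lower at an unadjusted p under 0.05 (8%, background 4.63%). Srebf1, which encodes the lipogenic factor SREBP-1 and is itself a target of the liver X receptors, was at 52.5, 59.96 and 55.3 CPM in FLOX-NC and at 26.6, 35.1 and 35.4 CPM in LKO-NC. The groups were separate, the log2 change being -0.79 ± 0.28 (SE), adjusted p = 0.677. Aacs, which activates acetoacetate for lipid synthesis, was at 22.6, 24.6 and 17.8 CPM against 12.98, 16.02 and 11.3 CPM, log2 change -0.69. Of 25 cholesterol synthesis and uptake genes, 17 were lower and 2 of them at an unadjusted p under 0.05 (8%, background 4.63%), with a median of -0.29. With single libraries left out the 2 ran from 1 to 6, the most without FLOX-NC 1. Hmgcs1, an early enzyme of the pathway, was at 343.1, 596.9 and 390.5 CPM against 307.6, 277.8 and 256.5 CPM. The 18 liver X receptor targets were split evenly, 9 higher and 9 lower, and held 1 member in each direction at that threshold (5.56% each, backgrounds 2.43% higher and 4.63% lower).

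Lipid droplet and fatty acid uptake genes had 19 of 25 members higher and 5 at an unadjusted p under 0.05 (20%, background 2.43%), with a median log2 change of 0.48 that was 0.24 without the library labelled LKO-NC 2. The 5 became 3 without FLOX-NC 1 and 9 without FLOX-NC 3. Cidec, a droplet protein that promotes fusion and growth of lipid droplets, was at 1.39, 1.98 and 0.786 CPM in FLOX-NC and at 7.99, 2.73 and 5.57 CPM in LKO-NC. All knockout libraries were above all floxed ones, the log2 change being 1.97 ± 0.45 (SE), adjusted p = 0.567, DESeq2 adjusted p = 0.00978. On the HFHS diet, in separate libraries, the log2 change of Cidec was 1.96. Fitm1, which takes part in droplet formation, and Abhd5, the activator of adipose triglyceride lipase, had log2 changes of 0.73 and 0.75, each without overlap. Apoa4, an apolipoprotein, was at 72.7, 231.4 and 156.2 CPM against 393.6, 228.1 and 945.2 CPM, with the library labelled LKO-NC 2 within the floxed range.

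Targets of the fatty acid sensor PPAR alpha had 28 of 36 members higher and 3 at an unadjusted p under 0.05 (8.33%, background 2.43%), with a median log2 change of 0.30, but the count rests on single libraries. The 3 became 1 without FLOX-NC 2, LKO-NC 3 or the library labelled LKO-NC 2, 5 without FLOX-HFHS 1 or LKO-HFHS 1, and 16 without FLOX-NC 3. Cpt1a, the gate of mitochondrial fatty acid oxidation, was at 102.5, 96.4 and 131.2 CPM against 149.6, 171.4 and 164.8 CPM. Vnn1, a pantetheinase, was at 39.8, 74.0 and 71.7 CPM against 99.6, 138.6 and 95.7 CPM. Both were separate between groups, with log2 changes of 0.56 and 0.85. Pck1, the gluconeogenic enzyme phosphoenolpyruvate carboxykinase, was at 1050.8, 792.9 and 1194.5 CPM against 1609.6, 1435.6 and 1607.0 CPM, log2 change 0.61, adjusted p = 0.682.

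Sult1e1, the estrogen sulfotransferase, was barely detected on the control diet. Its level was 0.232, 0.176 and 0 CPM in FLOX-NC and 0.211, 0 and 0 CPM in LKO-NC, and the log2 change of -0.94 ± 1.42 (SE) had an adjusted p of 0.846. A difference was not detectable at this depth. Of the 12 sulfotransferase genes tested, 1 was higher and 1 lower at an unadjusted p under 0.05 (8.33% each, backgrounds 2.43% and 4.63%).

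Interferon response genes had the highest share of lower members at an unadjusted p under 0.05 among the 27 gene groups, which do not include the cell type markers. Of 36 tested, 29 were lower in LKO-NC and 5 were so at that threshold (13.9%, background 4.63%), with none higher and a median log2 change of -0.35. Neither edgeR nor DESeq2 called any of the 36. Without the library labelled LKO-NC 2, 6 were lower at that threshold (background 2.81%), DESeq2 called 1 of them and the median was -0.49. The 5 became 3 without LKO-NC 1 or LKO-NC 3 and 2 without LKO-HFHS 2. Ifit1, an antiviral RNA-binding protein, was at 16.6, 17.7 and 10.2 CPM in FLOX-NC and 6.75, 8.87 and 2.65 CPM in LKO-NC. These ranges did not overlap, the log2 change being -1.29 ± 0.43 (SE), adjusted p = 0.677. Usp18, a protease that removes ISG15 and dampens interferon signalling, was at 3.05, 4.40 and 3.57 CPM against 0.923, 3.36 and 1.26 CPM. Irf7, a factor that drives interferon genes, was at 30.8, 27.9 and 19.4 CPM against 16.1, 21.7 and 13.1 CPM. In both, the library labelled LKO-NC 2 was within the floxed range and the other knockout libraries below it.

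Markers of lymphocytes were examined next, and neither edgeR nor DESeq2 called any of those tested. Summed over 16 T and NK cell markers, levels were 8.09, 8.52 and 5.32 CPM in FLOX-NC and 2.53, 4.10 and 3.75 CPM in LKO-NC, without overlap. Of the 12 of these markers that were tested, 3 were lower at an unadjusted p under 0.05 (25%, background 4.63%), but 1 was without LKO-NC 1 and 0 without FLOX-NC 2. The T cell receptor gene Trbc2 was at 1.19, 2.18 and 0.964 CPM against 0.448, 0.630 and 0.541 CPM. The B and plasma cell markers summed to 30.5, 26.3 and 20.5 CPM against 23.2, 12.3 and 12.5 CPM, with overlap, and 12 of 13 tested were lower, none at that threshold. With single libraries left out, 0 to 3 of the 13 were lower at it. The number was 2 without the library labelled LKO-NC 2 (15.4%, background 2.81%). Of the 12 T and NK cell markers, 2 were lower at it without that library (16.7%). In bulk tissue, fewer cells of a type and less RNA per cell cannot be told apart. Neutrophil markers summed to 5.21, 4.09 and 3.29 CPM against 8.39, 2.57 and 12.7 CPM, so that LKO-NC 1 and 3, the libraries of high immediate early genes, were above the floxed range. Kupffer cell markers overlapped, at 197.1, 154.0 and 164.1 CPM against 151.6, 169.4 and 207.8 CPM. Counted by members, the lower direction was not particular to lymphocytes. Lower were 11 of 14 tested monocyte-derived macrophage, 13 of 15 sinusoidal endothelial and 12 of 14 stellate cell and fibroblast markers. The share over all tested genes was 53.7%. Median log2 changes of these groups were -0.74, -0.28 and -0.45, with 1, 0 and 0 members lower at an unadjusted p under 0.05. Without FLOX-NC 2 the medians were -0.18, -0.09 and -0.06. Summed levels overlapped in all 3 groups. Those of the macrophage markers were 42.1, 73.7 and 75.4 CPM in FLOX-NC against 58.8, 59.8 and 78.1 CPM in LKO-NC. Among hepatocyte markers 13 of 15 were higher, none at that threshold. Their median log2 change was 0.29, and 0.001 without FLOX-NC 1. The part of these cells in the gene groups above was not tested.

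Of the lower genes named by p-value, Ebf1 encodes a transcription factor best known from the B cell lineage. It was at 2.09, 0.968 and 0.375 CPM in FLOX-NC and had no count in any LKO-NC library, against 128 counts over the floxed libraries. With a floor of 3 counts over the group it was at least 42.6-fold lower, a bound for counting error only. For Ebf1 edgeR gave an adjusted p of 0.144, and 0.147 without the library labelled LKO-NC 2. Adra2b, an alpha-2 adrenergic receptor, was at 2.09, 2.13 and 1.98 CPM against 0.765, 0.683 and 0.703 CPM, with a log2 change of -1.53 ± 0.33 (SE), adjusted p = 0.567. The spread of Adra2b within each group was small, below what counting error alone would give on average. Its counts were 63, 97 and 111 in FLOX-NC and 29, 26 and 39 in LKO-NC. Hivep2, a zinc finger transcription factor, was at 11.1, 7.57 and 3.54 CPM against 2.37, 1.31 and 2.49 CPM, and Asap3, a regulator of ARF GTPases, was at 12.3, 9.09 and 4.54 CPM against 3.11, 2.34 and 2.15 CPM. Ebf1, Hivep2 and Asap3 were each highest in FLOX-NC 1, the library of high ribosomal RNA share. Without FLOX-NC 1 the log2 changes of Hivep2 and Asap3 were both -1.42, against -1.84 and -1.77 with it, and in a fit that also held the share of ribosomal RNA they were -1.55 and -1.45.

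Ugt1a6b, a glucuronosyltransferase gene, was at 139.4, 89.3 and 39.9 CPM in FLOX-NC against 9.68, 11.8 and 24.6 CPM in LKO-NC. Its log2 change was -2.54 ± 0.43 (SE), adjusted p = 0.18, and -2.37 without the library labelled LKO-NC 2, adjusted p = 0.32. Ugt1a6b too was highest in FLOX-NC 1, and its log2 change was -2.06 without that library and -1.80 without the 4 libraries numbered 1. It overlaps Ugt1a6a, which lay in the opposite direction at 26.1, 47.0 and 55.6 CPM against 125.1, 120.3 and 159.7 CPM. Their sum overlapped between groups, at 165.5, 136.4 and 95.5 CPM against 134.7, 132.1 and 184.4 CPM, and the division of shared reads between the 2 genes is uncertain.

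Female-biased liver genes, 27 tested, had 16 lower members and 3 lower at an unadjusted p under 0.05 (11.1%, background 4.63%), a number that was 6 without FLOX-NC 3 and 5 without LKO-NC 1. Ntrk2, the receptor of brain-derived neurotrophic factor, was at 0.597, 0.947 and 0.750 CPM in FLOX-NC and at 0.0791, 0 and 0 CPM in LKO-NC. With 103 counts against 3, the ratio of floxed to knockout was 34.3 with a 95% exact interval of 11.4 to 169.1, which covers counting error only, and edgeR gave an adjusted p of 0.143. On the HFHS diet Ntrk2 was at 10.97, 10.1 and 13.2 CPM in floxed and 3.50, 6.62 and 3.81 CPM in knockout libraries, lower in every knockout library there too. The female-biased group went the other way on that diet, with a median log2 change of 0.77. Of its 27 members, 9 were higher there at an unadjusted p under 0.05 (33.3%, background 1.73%) and 1 lower (3.7%, background 1.52%). Cyp2b9, a female-biased cytochrome P450, had no count in LKO-NC and 125 counts over FLOX-NC. The floxed counts were 30, 88 and 7 (0.995, 1.94 and 0.125 CPM), so that most came from FLOX-NC 2. It was at least 41.6-fold lower with the same floor, a bound for counting error only, and edgeR gave an adjusted p of 0.567. On the HFHS diet Cyp2b9 overlapped between groups, with a log2 change of -0.32. Male-biased genes, 34 tested, had 25 higher members, 2 of them at an unadjusted p under 0.05 (5.88%, background 2.43%), and 10 without FLOX-NC 3 but 1 without LKO-NC 3. Their median log2 change was 0.32, and 0.037 without FLOX-NC 1.

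Bile acid, mitochondrially encoded and cytosolic ribosomal protein genes had no member at an unadjusted p under 0.05 over the 6 libraries, although 30 of 32 ribosomal protein genes were higher. Without FLOX-NC 3, however, 18 of the 32 ribosomal protein genes were higher at that threshold, with a median log2 change of 0.62, and the bile acid genes had 6 higher and 4 lower members. Without FLOX-NC 1 the ribosomal protein median was 0.05, against 0.30 over the 6 libraries, with 0 members at that threshold. Ribosomal protein genes summed to 4667.4, 7198.6 and 10204.5 CPM in FLOX-NC against 8059.4, 9130.6 and 9552.6 CPM in LKO-NC, with overlap. Extracellular matrix genes had 23 of 29 members lower, 2 at that threshold (6.9%, background 4.63%), and a median log2 change of -0.50. Their median was -0.26 without the library labelled LKO-NC 2. It was -0.06 with 1 such member without FLOX-NC 2, and -1.01 with 11 without LKO-NC 3, while there were 5 without FLOX-NC 1 and 7 without FLOX-NC 3. Among them, Col5a1, a fibrillar collagen chain, was at 3.38, 2.16 and 2.07 CPM in FLOX-NC and at 1.42, 0.840 and 1.154 CPM in LKO-NC, without overlap. Cdkn1a, the cell cycle inhibitor p21 of the cell cycle group, was at 0.431, 1.59 and 1.59 CPM against 2.61, 1.76 and 8.55 CPM, also without overlap.

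Whether the knockout differed between diets was tested as an interaction over all 12 libraries. edgeR called 0 of 15982 genes (0%), 782 being at an unadjusted p under 0.05 (4.89%), and 33 were called by DESeq2 (0.206%). Voom with quality weights called 0 (0%), with 2645 at an unadjusted p under 0.05 (16.5%). On the HFHS diet itself edgeR called 0 genes (0%), with 277 higher (1.73%) and 243 lower (1.52%) at an unadjusted p under 0.05. The diets share no library. Of the 388 genes higher at that threshold on the control diet, 203 (52.3%) had the same sign on the HFHS diet and 17 (4.38%) were higher there at an unadjusted p under 0.05. Of the 740 lower genes, 370 (50%) had the same sign and 20 (2.7%) were lower there at that threshold.

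The stress groups stood differently on the HFHS diet, where their medians were near or below 0. Heat shock chaperones had a median log2 change of 0.06 there, with 0 of 20 members at an unadjusted p under 0.05 in either direction. The interaction was at that threshold in 9 of 20 (45%, against 4.89% of all tested genes). It uses the same control-diet libraries in which 13 of the 20 were already at that threshold. Among the 388 genes higher at that threshold on the control diet, the interaction was at it in 158. The 4.89% is therefore no fair background for the stress groups. Hspa1b was at 20.7, 24.1 and 19.9 CPM in floxed and 23.3, 16.0 and 29.0 CPM in knockout HFHS libraries, overlapping. Its difference between diets was 1.91 on the log2 scale (unadjusted p = 0.000495, adjusted p = 0.758). Endoplasmic reticulum stress genes had a median of -0.26 on the HFHS diet, and the interaction was at that threshold in 11 of 29 (37.9%). NRF2 targets had a median of -0.18 there, and immediate early genes of -0.06. For PPAR alpha targets the median was higher on the HFHS diet, at 0.47, with 12 of 36 higher at an unadjusted p under 0.05 (33.3%, background 1.73%). The interaction was at the threshold in 6 of the 36 (16.7%, against 4.89% of all tested genes). It uses the same HFHS libraries in which 12 of the 36 were already at that threshold, so the 4.89% is no fair background here either. The control diet count of 3 ran from 1 to 16 when single libraries were left out.

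**Figure D5:**
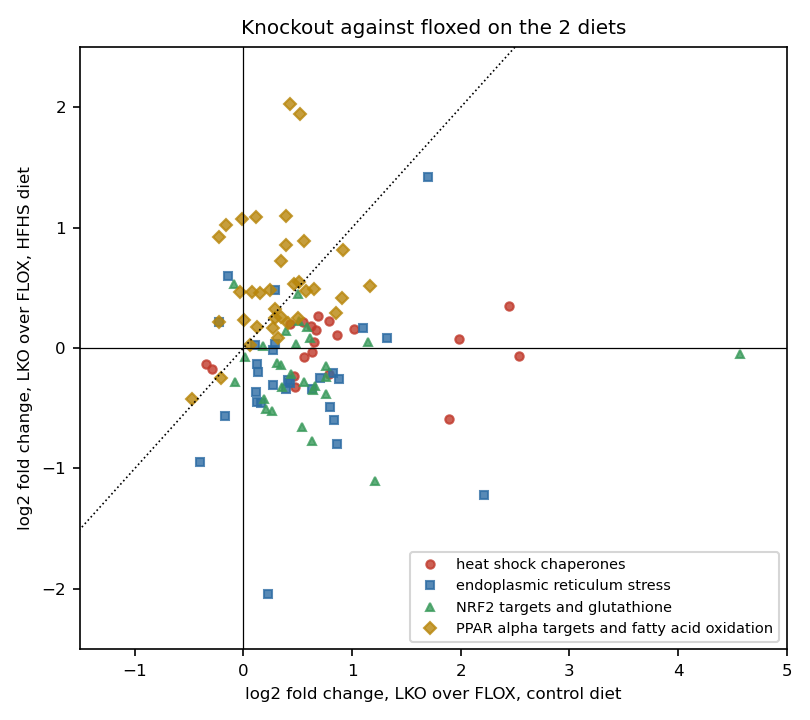
Fitted log2 change of LKO over FLOX on the control diet (horizontal) and on the HFHS diet (vertical) for members of 4 gene groups. Solid lines mark 0 and the dotted line equal change. Heat shock points spread to the right along 0, whereas PPAR alpha points lie mostly above 0. The point farthest to the right has no counts in FLOX-NC, and its fitted value depends on the prior count.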

How the data were processed

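The authors deposited whole-number estimated counts per gene and transcript, together with FPKM values, for 12 mouse liver libraries. Build mm10 and the tools HISAT2, StringTie, edgeR, cutadapt and FastQC are named per the submitters' processing notes, with no versions or settings. The deposited estimated counts carry no normalization, judged from their values. Deposited FPKM values were used for Lpcat3 alone, tested as log2(FPKM + 0.1). Samples were grouped by the treatment label.

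Counts were scaled by TMM, filtered with filterByExpr and fitted in edgeR 4.0.16 (R 4.3.3, robust quasi-likelihood) with 1 term per group over the 12 libraries, which leaves 8 residual degrees of freedom, or over 11 libraries without the one labelled LKO-NC 2, which leaves 7. Adjusted p-values are Benjamini-Hochberg over all tested genes. DESeq2 1.42.0 and limma 3.58.1 were alternatives. The fits were tested on simulated data. The fit holds no term for the replicate number, which the column names give in every group.

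Genes were named by a rule. Lpcat3 and Sult1e1 came first, then in each direction the genes called. As fewer than 5 were, the 5 of smallest unadjusted p with a group mean of at least 1 CPM and no overlap were taken. Clone, predicted and accession-like names were left out of these. Up to 4 of smallest p were added in each gene group described. A result that the rule would name is not reported here. The genes, groups and lists were chosen with earlier results of these data known. Motifs were searched in RefSeq promoter windows, in the 250 bases upstream of each start. Totals per library ran from 34951150 to 59205759 counts. Counting error is small beside the spread between libraries only for genes with many counts, and not for genes near the floor of 3 counts. In LKO-NC it is at least as large as the spread seen for Adra2b (29, 26 and 39 counts) and Gpat3 (252, 241 and 368 counts).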

Additional observations from a re-analysis of the deposited data

Results flagged for a closer look

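In 6 of the genes described or listed here, all 3 knockout libraries lay on one side of all 3 floxed libraries on the control diet and on the opposite side on the HFHS diet, and edgeR's interaction test called none of them. Over all 15982 tested genes, 30 (0.188%) were above on the control diet and below on the HFHS diet, and 49 (0.307%) the reverse. Most genes described here were chosen for a small p on the control diet, some also for no overlap there. These shares are therefore no fair background for the 6, and no conclusion is drawn from their number. Gclc, the glutathione synthesis subunit, was at 338.8, 358.8 and 302.0 CPM in floxed and 208.2, 180.8 and 246.0 CPM in knockout HFHS libraries, and its log2 change was higher by 1.19 on the control diet. For the glutathione transferase Gstm1 the difference between diets was 0.84 on the log2 scale. Tat, the tyrosine aminotransferase, was at 558.4, 477.5 and 456.7 CPM in FLOX-NC against 712.0, 679.2 and 775.3 CPM in LKO-NC, and at 285.6, 248.5 and 262.2 CPM against 123.9, 231.4 and 136.3 CPM on the HFHS diet, a difference of 1.23. Il1r1, the interleukin-1 receptor, was at 33.0, 24.4 and 22.8 CPM against 45.05, 47.05 and 39.5 CPM on the control diet and at 64.2, 38.4 and 54.7 CPM against 28.9, 32.2 and 31.3 CPM on the HFHS diet, a difference of 1.48. In the other direction, the difference was -0.92 for Taz and -1.40 for Aacs, both lower in LKO-NC and higher in LKO-HFHS than in their floxed controls.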

How the results depend on the processing

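Counts of called genes depended on the tool. On the control diet, where edgeR called 0, no filter on low counts gave 2, DESeq2 67, voom with quality weights 1 and leaving out the 4 libraries numbered 1 gave 4, while leaving out each library in turn gave 0 to 2. Without the library labelled LKO-NC 2, where edgeR also called 0, the same settings gave 14, 88, 1 and 24, the control diet libraries alone gave 1 and the ribosomal RNA share as covariate gave 1. Leaving out each of the 11 libraries there gave 0 to 22, and the highest values come from fits in which a single LKO-NC library was left and assumed to vary like the other groups. For the difference between diets DESeq2 called 33, leaving out the libraries numbered 1 gave 2 and leaving out each library 0 to 1. A replicate block gave 1 call on the control diet (Hspb1, adjusted p = 0.0135 in edgeR), 10 without the library labelled LKO-NC 2, and 1024 higher and 1221 lower genes at an unadjusted p under 0.05 on the control diet. Whether the numbers pair the libraries is not given in the labels. Deviations from group means correlated at 0.30, -0.02 and 0.137 for the control-diet pairs numbered 1, 2 and 3. FLOX-NC 2, FLOX-NC 3 and the library labelled LKO-NC 2 did not correlate best with their own number. The correlation of FLOX-NC 3 with the library labelled LKO-NC 2 was 0.203. The libraries numbered 1 had the lowest scaling factor and the highest mitochondrial share in all 4 groups. Lpcat3 ran from -1.26 to -0.22 and Sult1e1 from -5.69 to -0.27 on the log2 scale when each library was left out, with no call. Over 1287 fitted values of 56 named genes under the alternatives, 1262 kept direction and side of the adjusted threshold, and 25, for 18 genes, passed it in the same direction, under DESeq2 for all 18 and under other settings for 4 (Hspa1b, Hspb1, Ugt1a6b and Ntrk2). Removing the mitochondrial genes left no value for their own group. Genes below about 1 CPM, such as Sult1e1 and Ntrk2, rest on few counts.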
